A study of Homo sapiens with 18 samples.

Results

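Chromosome 17q ends in a stretch where peaks of the leukaemia fusion protein AML1-ETO lay close together, and the 7 peak lists described here held 2155 of their 102388 entries there. The members are all peaks that start on chromosome 17 at position 81000000 or higher in the hg38 build: 163 of 14264 control anti-ETO peaks, 479 of 23162 control anti-Flag peaks, 363 of 22594 knockdown anti-ETO peaks and 859 of 25961 knockdown anti-Flag peaks. The 3 lists derived from these held 132 of 8731 shared peaks, 1 of 3059 control-unique peaks and 158 of 4617 knockdown-unique peaks. The stretch was chosen by its number of peaks per Mb in these same lists, so its density and its calls are given as a description, without a test. The last member ends at position 83241894, which makes the stretch 2.24 Mb long.

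The cells were Kasumi-1, a human t(8;21) acute myeloid leukaemia line, carrying AML1-ETO with a Flag tag. All groups were transduced, and viable GFP-positive cells were sorted 3 days later. The 6 groups of 3 libraries were control or miR-130a knockdown cells, each profiled by CUT&RUN with an antibody against ETO, an antibody against Flag or mouse IgG. The control construct is not described in the labels, nor is it said whether the 3 libraries of a group came from separate cultures. Each list is 1 set of positions per antibody and condition, with no peak height and no value per library, so no spread between libraries can be given, the depth behind each call is unknown, and intervals below cover counting error over peaks only. Neighbouring peaks share their source and are no replicates. None of the lists used here is of IgG peaks.

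In AML1-ETO the DNA-binding Runt domain of RUNX1 is joined to nearly the whole of ETO (RUNX1T1), which binds corepressors, and the fusion is best known for holding myeloid differentiation genes down. In CUT&RUN, a nuclease tethered to the antibody cuts DNA next to the bound protein, and the released fragments are sequenced. Both antibodies recognise the tagged fusion, so a site that both of them called is here termed a dual-antibody site; anti-ETO can also bind fusion protein that has no tag. miR-130a is a microRNA, a short RNA that lowers its target messenger RNAs, and the comparison asked how its knockdown changes where AML1-ETO is found.

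Promoter sequence is shown for the gene starts that peaks covered, although most peaks lay elsewhere. RefSeq (GRCh38.p14) gave 76 promoter windows, each from 250 bases before to 50 bases after a transcription start, for 50 of the 66 protein-coding genes that start in the stretch. The 5 windows printed belong to the gene at the widest shared peaks and to the genes whose window is touched by a knockdown-unique peak, and capitals mark matches to the motifs searched on both strands: TGTGGT and TGCGGT (RUNX cores), CCGGAAG (ETS core), TGAGTCA (AP-1, the reverse complement of TGACTCA) and CAGCTG (E-box).
BAHCC1, chr17:81395207-81395506, plus strand: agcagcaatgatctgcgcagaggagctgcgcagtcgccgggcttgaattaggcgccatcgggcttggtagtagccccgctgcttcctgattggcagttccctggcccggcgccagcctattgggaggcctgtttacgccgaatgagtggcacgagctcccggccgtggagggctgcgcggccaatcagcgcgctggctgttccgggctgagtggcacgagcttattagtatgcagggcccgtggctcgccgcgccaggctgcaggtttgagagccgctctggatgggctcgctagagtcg
CCDC57, chr17:82212793-82213092, minus strand: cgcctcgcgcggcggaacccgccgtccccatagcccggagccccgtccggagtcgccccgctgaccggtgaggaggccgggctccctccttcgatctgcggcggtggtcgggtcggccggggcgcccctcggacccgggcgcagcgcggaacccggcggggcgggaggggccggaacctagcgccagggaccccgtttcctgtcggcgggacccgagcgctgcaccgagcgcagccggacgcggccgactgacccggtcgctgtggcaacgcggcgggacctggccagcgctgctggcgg
RFNG, chr17:82051762-82052061, minus strand: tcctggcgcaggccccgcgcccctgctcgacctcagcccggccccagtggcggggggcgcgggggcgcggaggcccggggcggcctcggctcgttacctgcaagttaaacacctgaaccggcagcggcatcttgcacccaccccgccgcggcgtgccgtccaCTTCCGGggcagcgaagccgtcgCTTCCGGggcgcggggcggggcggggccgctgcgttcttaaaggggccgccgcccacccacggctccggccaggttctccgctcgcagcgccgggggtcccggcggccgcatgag
GPS1, chr17:82051648-82051947, plus strand: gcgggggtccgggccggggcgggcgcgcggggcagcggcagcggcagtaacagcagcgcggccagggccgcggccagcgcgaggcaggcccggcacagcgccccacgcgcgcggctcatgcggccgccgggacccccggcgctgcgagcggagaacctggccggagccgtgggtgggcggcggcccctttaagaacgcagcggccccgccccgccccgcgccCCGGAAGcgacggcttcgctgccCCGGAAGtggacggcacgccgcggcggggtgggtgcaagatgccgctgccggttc
CEP131, chr17:81222916-81223215, minus strand: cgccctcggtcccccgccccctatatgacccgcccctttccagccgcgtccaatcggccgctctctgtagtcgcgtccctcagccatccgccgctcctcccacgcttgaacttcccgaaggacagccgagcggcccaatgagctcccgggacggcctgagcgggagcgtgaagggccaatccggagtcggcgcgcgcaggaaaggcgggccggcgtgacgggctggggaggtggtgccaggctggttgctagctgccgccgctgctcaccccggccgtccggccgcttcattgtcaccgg

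All 4 single-antibody lists covered the 300 bases of the BAHCC1 window in full, and none of the motifs was found in it, nor in the CCDC57 and CEP131 windows. At CCDC57, knockdown anti-ETO covered all 300 bases and control anti-Flag 51, while control anti-ETO and knockdown anti-Flag covered 0. RFNG and GPS1 lie back to back, and their windows overlap on opposite strands. Both hold 2 matches to the ETS core and none to the RUNX cores. Control anti-ETO covered 0 bases of both windows, while knockdown anti-ETO covered 216 bases of the RFNG window and 102 of the GPS1 window. At CEP131 the covered bases were 0 in control anti-ETO, 219 in control anti-Flag, 128 in knockdown anti-ETO and 50 in knockdown anti-Flag. The median G and C content of the 76 windows was 72.0%, against 62.3% over 22132 promoter windows of protein-coding genes in the table.

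A match to TGTGGT was found in 10 of the 76 windows (13.2%, against 11.3% of all 22132) and to TGCGGT also in 10 (13.2% against 8.54%). The ETS core was found in 20 windows (26.3% against 12.8%), the AP-1 motif in 4 (5.26% against 4.01%) and the E-box in 9 (11.8% against 18.0%). Among the 41 windows touched by a peak in all 4 lists, 7 held TGTGGT (17.1%), 7 held TGCGGT (17.1%) and 13 held the ETS core (31.7%), against 10.97%, 15.2% and 18.7% of the 4010 such windows of the genome. The E-box was found in 4 of the 41 (9.76% against 17.1%) and the AP-1 motif in 1 (2.44% against 2.27%). The 41 windows had a median G and C content of 73.7%, against 68.7% of the 4010. Some windows overlap and hold the same site. With overlapping windows joined, 14 of 60 in the stretch held the ETS core (23.3%, against 12.2% of 19476 over the genome), 8 held TGTGGT (13.3% against 11.9%) and 9 held TGCGGT (15% against 8.73%). Each share describes letters in the windows and names no binding factor, and the part of base composition in it was not tested.

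Peaks filled a large part of the stretch. Knockdown anti-Flag peaks covered 24.98% of its bases, control anti-Flag peaks 14.9%, knockdown anti-ETO peaks 12.9% and control anti-ETO peaks 5.65%, while each list covered between 0.793% and 1.45% of the rest of chromosome 17. Knockdown anti-Flag peaks lay at 383 per Mb with a median gap of 858 bp between neighbours, against 28.9 per Mb and 2955 bp on the rest of the chromosome. The window from 81 to 82 Mb held more control anti-Flag (296), knockdown anti-ETO (219) and knockdown anti-Flag peaks (446) than any other 1-Mb window of the genome, and ranked 2 for control anti-ETO (103). Protein-coding genes were also dense, at 29.4 per Mb against 13.6 on the rest of chromosome 17. Per protein-coding gene, there were 13.0 knockdown anti-Flag and 2.47 control anti-ETO peaks in the stretch, against 2.12 and 0.907 on the rest of the chromosome. The part of gene density and base composition in the number of calls was not tested.

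**Figure D1:**
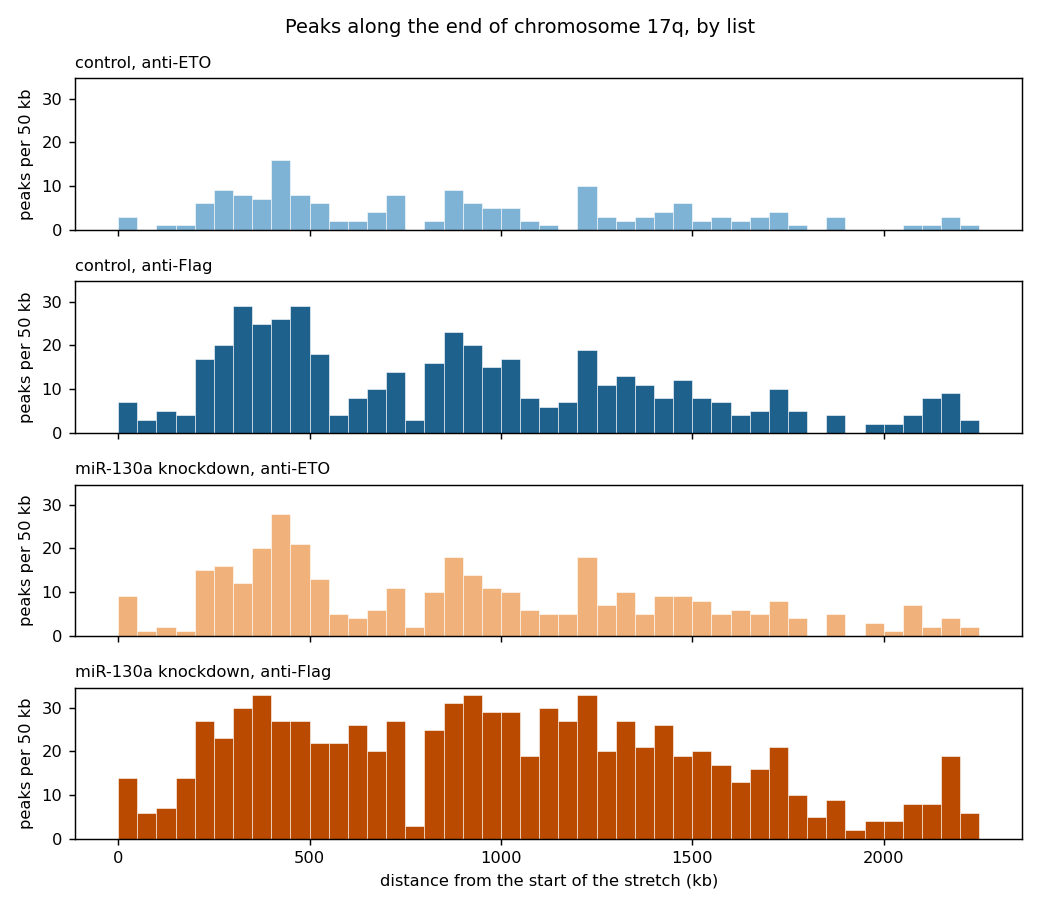
Number of peaks per 50 kb (vertical axis) against the distance from the start of the stretch in kb (horizontal axis), 1 panel per antibody and condition. All 4 lists are high around the 400 kb mark, where control anti-ETO reaches 16 peaks, and knockdown anti-Flag stays between 19 and 33 peaks per bin from 800 to 1550 kb.

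The lists differed in how their peaks were spread along the stretch, as the plot of peaks per 50 kb shows. The bin that starts 400 kb into the stretch held 16 control anti-ETO, 26 control anti-Flag, 28 knockdown anti-ETO and 27 knockdown anti-Flag peaks; it lies in the BAHCC1 gene. The bin that starts at 1150 kb, inside CCDC57, held 0, 7, 5 and 27 in the same order. The longest run without any call was 51.9 kb, from 81742093 to 81794015, between SLC25A10 and GCGR. The next longest was 29.4 kb, from 82916756 to 82946161. Whether reads can be mapped along the whole of the longest run was not checked, so it is not read as unbound. At the lower limit, the last knockdown anti-Flag peak outside (80998309 to 80998729) was 421 bp wide and the first inside (81004546 to 81004846) was 301 bp wide. For control anti-ETO these were 368 and 1357 bp wide, the second at 81033511 to 81034867.

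Peaks of the shorter lists mostly coincided with peaks of the longer ones. Of the 163 control anti-ETO peaks, 161 overlapped a control anti-Flag peak by at least 1 bp (98.8%, 95% Wilson interval 95.6 to 99.7, where 89.6% of the whole list did), and all 163 had a partner in the knockdown anti-ETO list (91.0% of the whole list). A knockdown anti-Flag partner was found for 161 of them (98.8%; 69.3% of the whole list). Of the 363 knockdown anti-ETO peaks, 336 overlapped a knockdown anti-Flag peak (92.6%, 89.4 to 94.8), where 63.2% of the whole list and 68.5% of the rest of chromosome 17 did. Of the 479 control anti-Flag peaks, 425 overlapped a knockdown anti-Flag peak (88.7%, 85.6 to 91.3; 62.1% of the whole list). In the other direction the shares were low: 153 of the 479 control anti-Flag peaks overlapped a control anti-ETO peak (31.9%; 57.5% of the whole list), and 346 of the 859 knockdown anti-Flag peaks had a partner in the knockdown anti-ETO list (40.3%; 63.1% of the whole list). Across conditions and antibodies, 312 control anti-Flag peaks had a knockdown anti-ETO partner (65.1%; 74.1% of the whole list), and 298 knockdown anti-ETO peaks had a control anti-Flag partner (82.1%; 70.7%). A control anti-ETO peak was found at 144 knockdown anti-ETO peaks (39.7%; 55.7%) and at 159 knockdown anti-Flag peaks (18.5%; 43.2%), and a control anti-Flag peak at 407 knockdown anti-Flag peaks (47.4%; 59.2%). Thus most anti-ETO peaks had an anti-Flag partner of the same condition, and most anti-Flag peaks had no such anti-ETO partner. Where peaks are dense, an overlap of 1 bp is met more often. Knockdown anti-Flag peaks covered 24.98% of the stretch and 1.41% of the rest of chromosome 17. The part of this density in the overlap shares was not tested.

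Joining overlapping peaks of the 4 lists gave 855 regions here and 35622 in all. Knockdown anti-Flag alone called 400 of the 855 (46.8%, 43.5 to 50.1; 22.3% of all regions), and this was the most frequent pattern. All 4 lists called 132 (15.4%, 13.2 to 18.0; 24.8% of all regions). Every list but control anti-ETO called 121 (14.2%; 7.29% of all), and both anti-Flag lists alone called 99 (11.6%; 3.77% of all). Both knockdown lists alone called 39 (4.56%; 5.20% of all), control anti-Flag alone 38 (4.44%; 10.2% of all), and control anti-Flag with knockdown anti-ETO 10 (1.17%; 3.75% of all). Control anti-ETO alone called 0 (1.40% of all, or 497 regions), and knockdown anti-ETO alone called 14 (1.64%; 10.3% of all). Of the other patterns with control anti-ETO, a single region lacked only knockdown anti-Flag (6.48% of all) and a single one lacked only control anti-Flag (0.752% of all). None of the 855 lacked only knockdown anti-ETO (0.267% of all), and none paired control anti-ETO with just control anti-Flag (1.76%), knockdown anti-ETO (1.63%) or knockdown anti-Flag (0.0393%). No knockdown call was found for 38 regions (4.44%; 13.4% of all), all of them called by control anti-Flag alone, and no control call for 453 (53.0%; 37.8% of all).

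**Figure D2:**
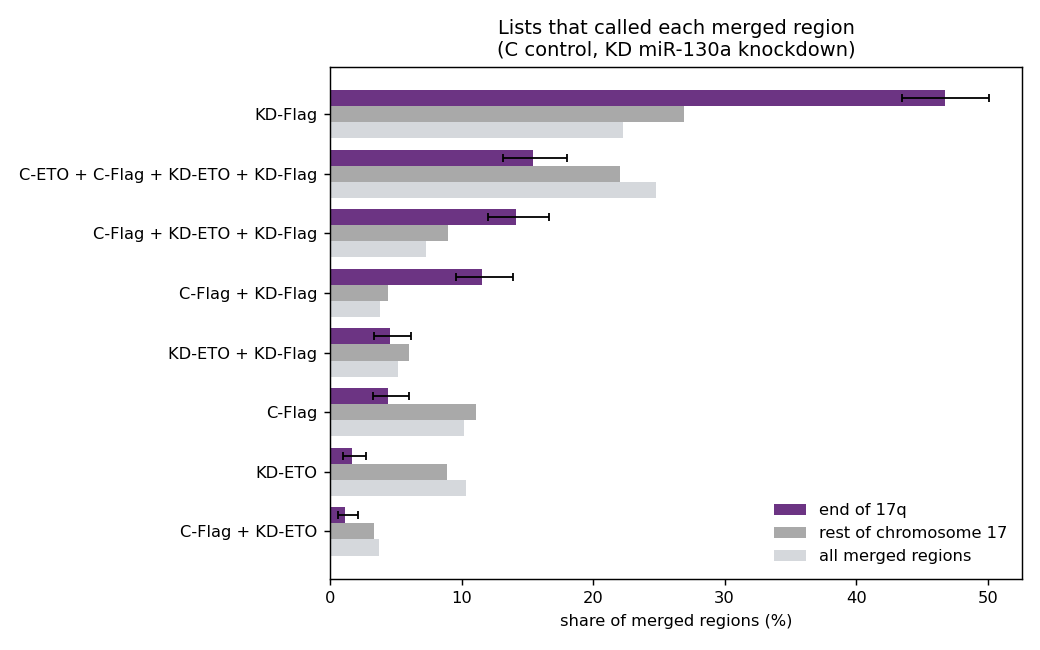
Share of merged regions in percent (horizontal axis) by the lists that called them, for patterns with 10 or more regions in the stretch. Purple bars are the 855 regions of the stretch with 95% Wilson intervals, dark grey the rest of chromosome 17 and light grey all 35622 regions; the purple bar for knockdown anti-Flag alone reaches 46.8%.

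Regions joined from more lists were wider, as joining peaks itself brings about. The median width of merged regions in the stretch was 1494 bp where all 4 lists had a call, 932 bp where every list but control anti-ETO did, 521 bp for both anti-Flag lists and 317 bp for knockdown anti-Flag alone, against 1056, 628, 479 and 277 bp over the genome. In each of these 4 patterns the median was higher in the stretch than over the genome.

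Dual-antibody sites found only after knockdown were common here, and a single site was found only in control. The stretch was chosen by its peaks in these lists, knockdown calls included, so the shares and ratios below are not independent of that choice. Of the 291 entries of the 3 derived lists, 132 were shared (45.4%; 53.2% over the whole lists) and 158 were knockdown-unique (54.3%, 48.6 to 59.9), against 28.1% over the whole lists and 35.8% on the rest of chromosome 17. The control-unique peak made up 0.344% (0.0607 to 1.92), against 18.6% over the whole lists. Anti-ETO peaks numbered 2.23 times as many in knockdown as in control (1.58 over the whole lists), and anti-Flag peaks 1.79 times as many (1.12 over the whole lists). Knockdown lists were longer in the whole series too, so all 4 lists were also shortened by width to the length of the shortest. Shortening by width favours the stretch, because its peaks were wider. The median knockdown anti-Flag peak was 427 bp wide here, against 364 bp over the whole list. Derived lists were rebuilt from the shortened lists with an overlap of at least 100 bp. They held 120 shared, 4 control-unique and 88 knockdown-unique peaks in the stretch, but 3247 control-unique and 2114 knockdown-unique peaks over the genome.

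The control-unique peak lies at the end of FOXK2, at 82604434 to 82604679. Control anti-ETO covered 213 of its 246 bases, control anti-Flag 246, knockdown anti-ETO 194 and knockdown anti-Flag 0. It therefore lacked only the knockdown anti-Flag call. Over the whole control-unique list, 76.7% of peaks overlapped a knockdown anti-ETO peak and 5.17% a knockdown anti-Flag peak. Of the 158 knockdown-unique peaks, 122 overlapped a control anti-Flag peak (77.2%, 70.1 to 83.1; 56.1% of the whole list), none overlapped a control anti-ETO peak (6.82% of the whole list) and 36 had no control call (22.8%; 38.1% of the whole list). Most knockdown-unique sites of the stretch were thus sites that anti-Flag had also called in control cells. The missing control anti-ETO overlap follows largely from the definition of the list, which leaves out dual-antibody sites of control. Of the 163 control anti-ETO peaks of the stretch, 161 overlapped a control anti-Flag peak, so few could meet a knockdown-unique peak.

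**Figure D3:**
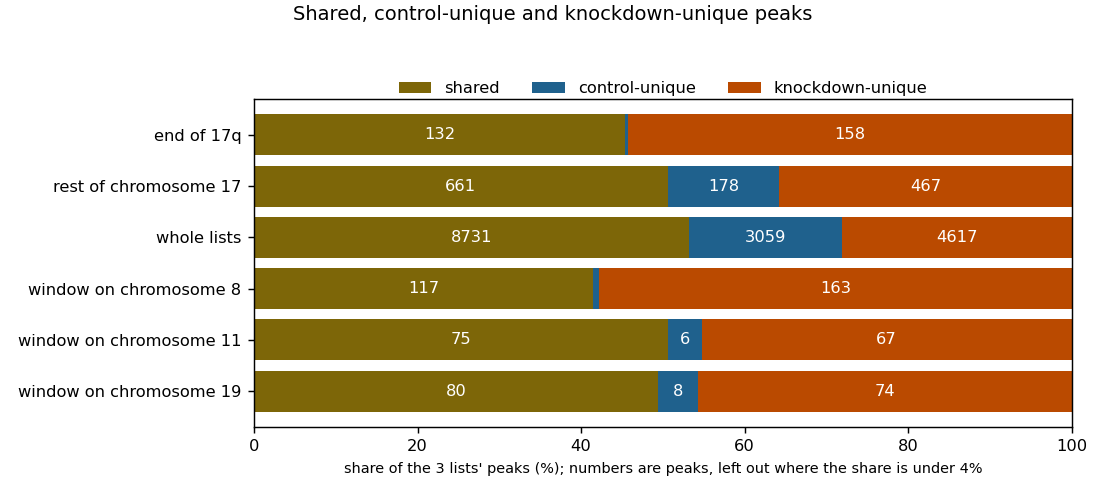
Shared, control-unique and knockdown-unique peaks as a share in percent (horizontal axis) of the peaks of the 3 lists, for the stretch, the rest of chromosome 17, the whole lists and 3 other windows dense in peaks. Numbers in the bars are peaks; the stretch has 132 shared and 158 knockdown-unique peaks and 1 control-unique peak, too thin a bar for its number.

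Sites called in all 4 lists were also broader after knockdown. In the 132 regions, the median length under peaks was 643 bp for control anti-ETO, 1159 bp for knockdown anti-ETO, 1167 bp for control anti-Flag and 1356 bp for knockdown anti-Flag. Knockdown anti-ETO covered more bases than control anti-ETO in 124 of the 132 regions (93.9%; 81.3% of the 8835 such regions of the genome). Knockdown anti-Flag covered more than control anti-Flag in 82 (62.1%; 30.2% of the genome's regions). The anti-Flag medians over the genome ran the other way, at 800 bp in control and 629 bp in knockdown. In the 121 regions that lacked only control anti-ETO, the medians were 537 bp for control anti-Flag, 484 bp for knockdown anti-ETO and 864 bp for knockdown anti-Flag.

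**Figure D4:**
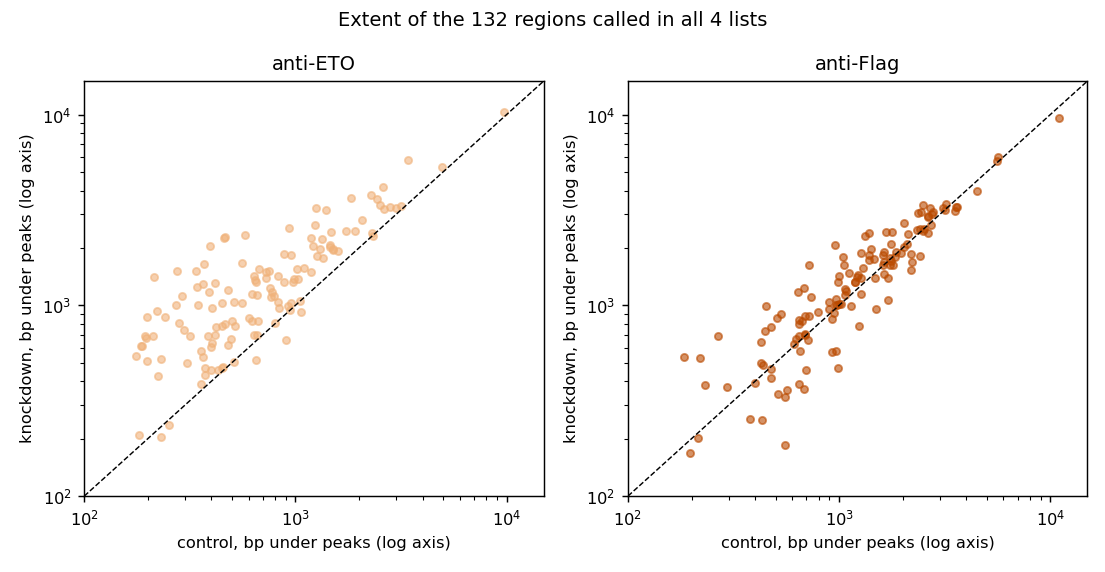
Bases under peaks in knockdown (vertical, log axis) against control (horizontal, log axis) for the 132 regions called in all 4 lists, anti-ETO at left and anti-Flag at right; each point is a region and the dashed line marks equal length. For anti-ETO, 124 points lie above the line, for anti-Flag 82.

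Peaks of the stretch lay less at gene starts and ends than peaks in general. The centre of 45 of the 132 shared peaks (34.1%) was within 1 kb of the start or end of a protein-coding gene, where 51.7% of all shared peaks were, and 49 (37.1%; 29.3% of all shared peaks) were elsewhere inside a gene. Among single-antibody lists, 33.7% of control anti-ETO peaks were at a start or end (50.9% of the whole list) and 38.7% elsewhere inside a gene (29.2%), and 14.3% of knockdown anti-Flag peaks were at a start or end (30.1%) and 55.2% elsewhere inside a gene (41.7%). Of the 158 knockdown-unique peaks, 20 (12.7%; 23.8% of the whole list) were within 1 kb of a start or end, 77 (48.7%; 45.1%) elsewhere inside a gene and 61 (38.6%; 31.1%) outside genes. Of the 10 widest knockdown-unique peaks, 9 lay away from protein-coding genes. The widest, at 81363884 to 81367014 (3131 bp), had 0 bp under control anti-ETO, 797 under control anti-Flag, 1387 under knockdown anti-ETO and 3131 under knockdown anti-Flag peaks. Of the 400 regions of knockdown anti-Flag alone, 274 (68.5%, against 54.5% of such regions over the genome) lay inside a gene away from its ends. Promoter windows were still often covered: all 4 lists touched 41 of the 76 (53.9%; 18.1% of all windows), shared peaks 47 (61.8%; 22.1%), knockdown-unique peaks 4 (5.26%; 2.77%), and no list touched 17 (22.4%; 61.9%).

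Gene by gene, 65 of the 66 protein-coding genes had a peak of some list in the body or within 1 kb of it (52.8% of all 19974 genes). A peak in all 4 lists was found at 50 (75.8%, 64.2 to 84.5, against 31.0% of all genes). High shares of genes with a peak follow in part from the choice of the stretch by its number of peaks. By list, 50 genes had a control anti-ETO peak (41.1% of all genes), 61 a control anti-Flag peak (43.8%), 60 a knockdown anti-ETO peak (47.8%) and 65 a knockdown anti-Flag peak (36.4%). A shared peak was found at 50 genes (29.5% of all genes), a knockdown-unique peak at 45 (68.2%; 12.4% of all genes) and the control-unique peak at FOXK2 (12.3% of all genes had such a peak). Knockdown-unique peaks came beside a shared peak at 36 genes (8.11% of all genes) and without one at 9 (4.26%). Of the 60 genes with an anti-ETO peak in either condition, 59 had more bases covered in knockdown than in control (98.3%; 82.8% of the 9924 such genes of the genome), and LOC124904094 had fewer. Of the 65 genes with an anti-Flag peak, 61 had more bases covered in knockdown (93.8%, against 32.0% of the 9312 such genes of the genome). The other 4 had fewer (NDUFAF8, FSCN2, PPP1R27 and LOC124904094). Control and knockdown anti-Flag bases were 1473 and 1419 at NDUFAF8 and 5876 and 5811 at FSCN2. They were 1595 and 1594 at PPP1R27 and 432 and 251 at LOC124904094. The gene without a peak in any list was LOC124904095, and neighbouring genes can share a peak. In the sentences that follow, 4 values in a row stand for control anti-ETO, control anti-Flag, knockdown anti-ETO and knockdown anti-Flag.

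BAHCC1, at 81395457 to 81466331, encodes a large chromatin protein with a BAH domain and was the most covered long gene of the stretch. It had 23, 36, 35 and 37 peaks, which covered 34.4%, 65.9%, 61.4% and 69.95% of the gene and its flanks, with 12 shared and 12 knockdown-unique peaks. The widest merged region (81419878 to 81430913, 11036 bp) and the second (81399795 to 81406322, 6528 bp) both lay in it. Control anti-ETO already covered 9689 bp of the widest, beside 10957, 10321 and 9569 bp in the other lists, so the lists hardly differed there. In the second it covered 3433 bp beside 5580, 5800 and 5711 bp. The third region by width (81479304 to 81485366, 6063 bp) lay outside protein-coding genes, at LINC01971, and was a single peak in each list.

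Of the 6 listed genes of transcription and chromatin, 5 had a peak in all 4 lists and 4 had a knockdown-unique peak, shares near the 75.8% and 68.2% of all 66 genes of the stretch. MAFG, a small MAF protein that pairs with NFE2, had 4, 10, 6 and 11 peaks, which covered 2914, 7075, 5450 and 8265 bp. SIRT7, a nuclear deacetylase next to MAFG, had 1024, 3146, 3880 and 4447 bp under peaks, and 3 shared peaks. FOXK2, a forkhead transcription factor, had 6, 15, 12 and 37 peaks, with 5 shared and 5 knockdown-unique ones besides the control-unique peak. All 5 of its knockdown-unique peaks overlapped a control anti-Flag peak. ALYREF, an mRNA export adaptor, had 2 shared and no unique peaks, with 1367, 1843, 2167 and 2392 bp. ZNF750, a transcription factor of skin cells that lies within TBCD, had a single peak, of knockdown anti-Flag, which covered 239 bp.

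Of the 10 listed genes of metabolism and transport, 8 had a peak in all 4 lists (75.8% of the 66 genes did) and all 10 had more bases under knockdown than control peaks with both antibodies, as 59 of the 66 had with anti-ETO and 61 with anti-Flag. SLC16A3, the lactate exporter MCT4, had 5, 12, 10 and 17 peaks, covering 5336, 10301, 9534 and 13423 bp. It holds the fourth widest region, 82229448 to 82234163, with 2598, 4522, 4191 and 3999 bp, and 3 knockdown-unique peaks, the widest 1247 bp. SLC38A10, an amino acid transporter, had 9 shared peaks, and its peaks covered 6499, 13526, 15515 and 17904 bp. At SLC25A10, the mitochondrial dicarboxylate carrier, the region from 81709819 to 81713826 had 2278, 3549, 3777 and 3129 bp and the gene had no unique peak. FASN, the fatty acid synthase, had 1 shared and no unique peaks and 2135, 1781, 2414 and 2831 bp.

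At GCGR, the glucagon receptor, and PYCR1, an enzyme of proline synthesis, control anti-ETO had no peak. GCGR had 0, 1410, 1466 and 3332 bp under peaks and 3 knockdown-unique peaks, the widest at 81807140 to 81809089 (1950 bp). PYCR1 had 0, 1021, 939 and 2721 bp and 2 knockdown-unique peaks, the widest at 81933661 to 81934922 (1262 bp). All 5 overlapped a control anti-Flag peak. DCXR, a xylulose reductase, had 1104, 1629, 2145 and 2188 bp. PCYT2, an enzyme of phosphatidylethanolamine synthesis, had 773, 3187, 2909 and 5809 bp. The neighbours FN3KRP and FN3K, whose products remove sugar adducts from proteins, had 2 shared peaks each, and FN3K alone of the pair had knockdown-unique peaks (2, neither with a control anti-Flag peak).

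All 6 listed cytoskeleton genes had a peak in all 4 lists and a shared peak (75.8% of the 66 genes for each), and 5 had a knockdown-unique peak (68.2% of the 66). ARHGDIA was the exception with 2 shared and no unique peaks. Its peaks covered 2351, 3544, 4486 and 3844 bp, and the knockdown anti-ETO peaks reached 79.9% of the gene and flanks, the highest share of any gene and list here. ACTG1, the gamma actin gene, had 813, 813, 2843 and 1316 bp. Of its knockdown-unique peak at 81508511 to 81510123, knockdown anti-ETO covered all 1613 bp, control anti-ETO 0 and control anti-Flag 192. FSCN2 had 1744, 5876, 3902 and 5811 bp, the only cytoskeleton gene listed with fewer anti-Flag bases in knockdown than in control. A region of 3614 bp (81512986 to 81516599) spans from ACTG1 to FSCN2, a fascin of the retina. RAC3 had 1234, 1872, 1967 and 2157 bp. BAIAP2, an adaptor protein of the actin cytoskeleton, had 1317, 4546, 3678 and 5575 bp, with its widest knockdown-unique peak at 81035627 to 81037015 (1389 bp, all of it under control anti-Flag). TBCD, a tubulin folding cofactor, is the longest gene of the stretch at 194 kb, and its peaks covered no more than 6.42% of it in any list.

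All 7 listed genes of protein handling and trafficking had a peak in all 4 lists, a shared and a knockdown-unique peak, beside 75.8%, 75.8% and 68.2% of the 66 genes. NPLOC4, a cofactor of the VCP segregase, had 3, 7, 6 and 41 peaks, covering 1.90%, 4.75%, 3.74% and 24.996% of the gene and its flanks. Of its 42 merged regions, 33 were called by knockdown anti-Flag alone, with a median width of 377 bp. CEP131, a centriolar satellite protein, had 1074, 4527, 3257 and 9290 bp and 4 knockdown-unique peaks, the widest at 81213259 to 81214852 (1594 bp). P4HB, a protein disulfide isomerase, had 1766, 3245, 2235 and 8397 bp, the largest step again being in knockdown anti-Flag. HGS, which sorts ubiquitinated cargo on endosomes, had 705, 2507, 2422 and 4417 bp. TEPSIN, an AP-4 accessory protein, had 1417, 2413, 2607 and 2756 bp. RAB40B, a small GTPase, had 919, 1931, 3205 and 5808 bp, and WDR45B, an autophagy protein, 375, 601, 1390 and 2369 bp.

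CCDC57, a centrosomal coiled-coil gene of 111 kb, had a pattern like that of NPLOC4, and also 9 knockdown-unique peaks. Its 3, 18, 15 and 66 peaks covered 1.82%, 9.68%, 8.16% and 32.8% of the gene and flanks, and knockdown anti-Flag alone called 46 of its 65 merged regions. Its widest knockdown-unique peak, at 82211349 to 82213736, has 0, 1495, 1786 and 1964 bp and covers the promoter window printed above. Among other long genes, knockdown anti-Flag alone called 24 of 40 merged regions at FOXK2, 18 of 29 at TBCD and 14 of 19 at ASPSCR1, or 0.276, 0.0919 and 0.335 per kb of gene and flanks, beside 0.406 at CCDC57 and 0.401 at NPLOC4. Per kb, this number was highest at MYADML2 (0.730, 7 of 9 regions), NOTUM (0.562, 6 of 12) and UTS2R (0.520, 4 of 4). MYADML2 had 0, 212, 54 and 4353 bp under peaks, so that its anti-Flag share was 2.21% in control and 45.4% in knockdown. OGFOD3, a predicted oxygenase, had 3 knockdown-unique peaks, the widest (82407047 to 82409012, 1966 bp) with 0, 253, 257 and 1966 bp. The 9 genes with a knockdown-unique but no shared peak were LOC124904077, GCGR, PYCR1, MYADML2, RFNG, GPS1, CD7, TEX19 and METRNL. RFNG, a fringe enzyme that modifies Notch receptors, had 0, 912, 966 and 2190 bp under peaks, and GPS1, a COP9 signalosome subunit, 0, 1401, 1474 and 2170 bp. TEX19, a germ cell gene, had a knockdown-unique peak at 82357767 to 82359172 (1406 bp) and no shared peak.

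Of the 5 listed genes of blood and immune cells, all 5 had a knockdown-unique peak (68.2% of the 66 genes) and 3 had a shared peak (75.8% of the 66). CD7, a surface protein of T cells and early progenitors that is found on part of acute myeloid leukaemias, had no control peak of either antibody. Its knockdown peaks covered 738 bp with anti-ETO and 1359 bp with anti-Flag, and its knockdown-unique peak lies at 82314314 to 82315069. METRNL, a secreted cytokine, also had no control peak. Knockdown anti-ETO covered 1178 bp of it and knockdown anti-Flag 733 bp, with unique peaks at 83080164 to 83080376 and 83083855 to 83084328. Outside this list, UTS2R and ZNF750 had no control peak of either antibody as well. In all, 5 of the 66 genes had no control anti-Flag peak. SECTM1, a ligand of CD7, had 231, 1961, 1410 and 3537 bp and 3 knockdown-unique peaks, all with a control anti-Flag peak. CYBC1, a chaperone of the phagocyte NADPH oxidase, had 653, 1679, 1626 and 2693 bp. CSNK1D, also on this list and counted among the 3, encodes casein kinase 1 delta, which most cell types express, and had 4 shared peaks and 3345, 6457, 6300 and 8981 bp.

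Among the 4 listed mitochondrial genes, 3 had a peak in all 4 lists (75.8% of the 66 genes) and 2 had a knockdown-unique peak (68.2% of the 66). NDUFAF8, a complex I assembly factor, had 435, 1473, 1443 and 1419 bp, so that its anti-Flag length hardly differed between conditions. MRPL12, a mitochondrial ribosomal protein, had 1084, 2080, 1856 and 2168 bp, and OXLD1 had 887, 1621, 1862 and 1847 bp; neither had a unique peak. The fourth, PYCR1, is given above. Among the remaining genes at the 10 widest regions, CENPX, a histone-fold protein of centromeres and DNA repair, and its neighbour LRRC45, a centrosome linker, share a region of 3813 bp (82020913 to 82024725) with 3006, 3218, 3251 and 3411 bp, close to equal in all 4 lists.

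**Figure D5:**
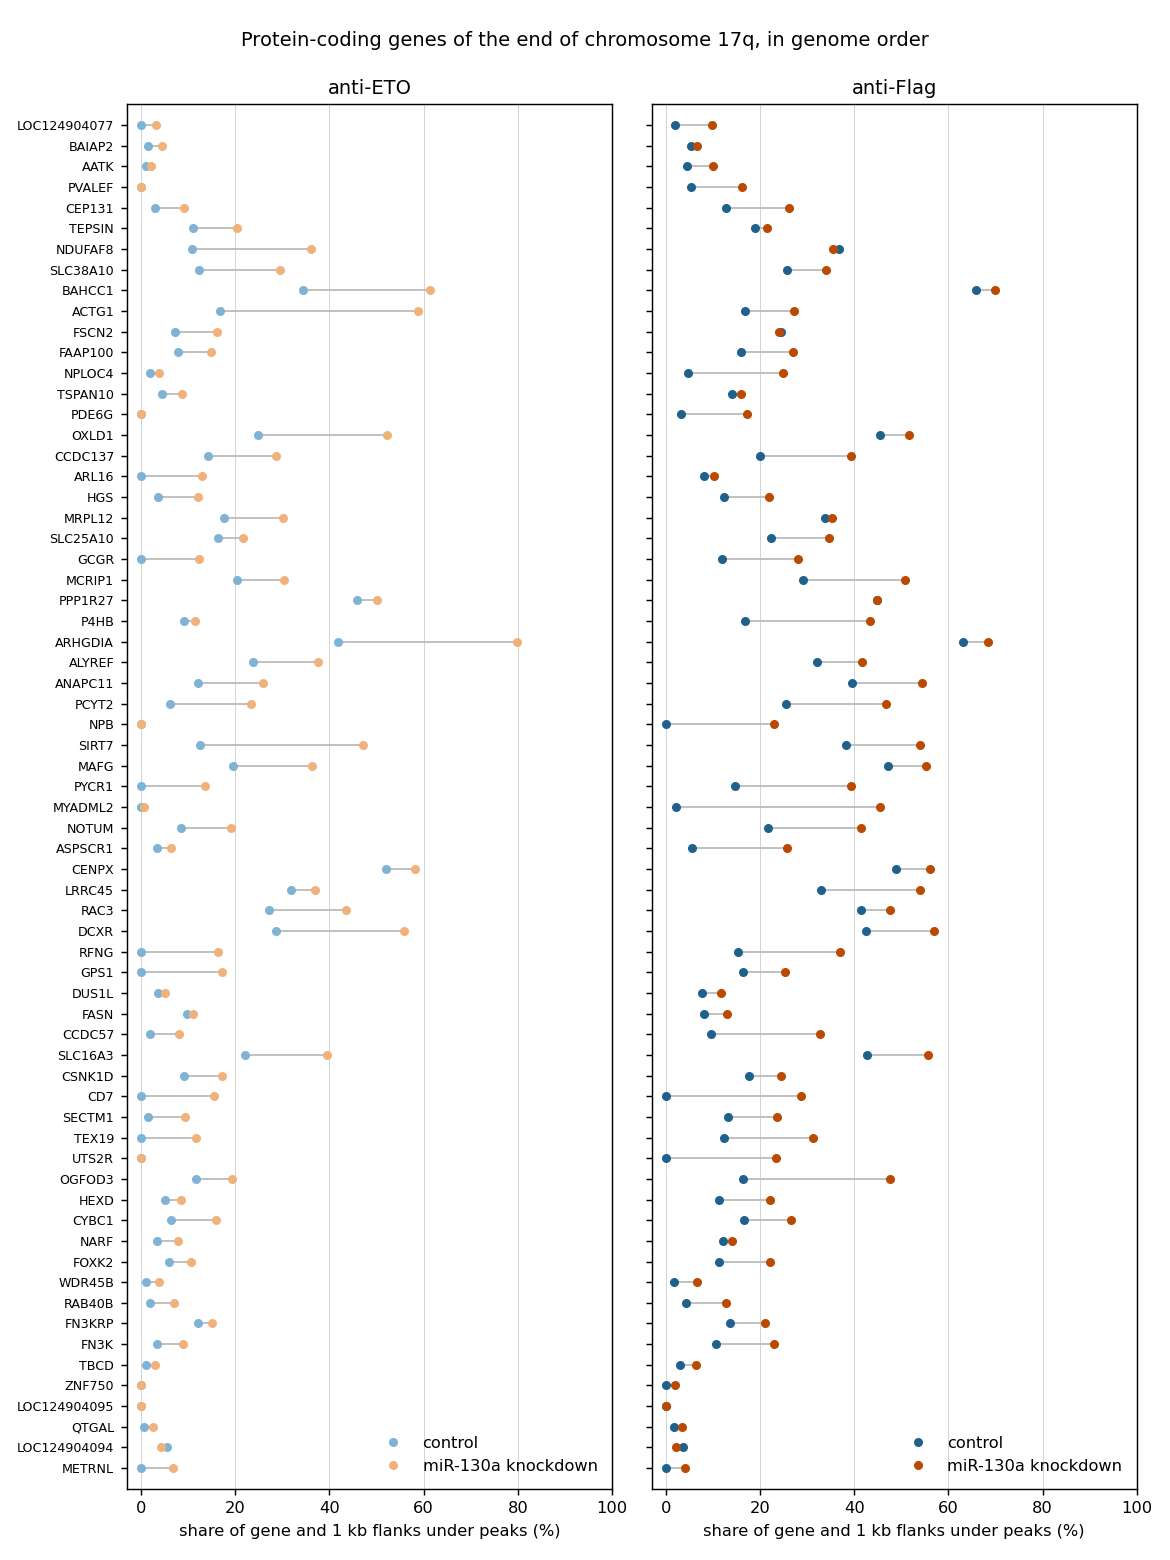
Share of each protein-coding gene and its 1 kb flanks under peaks in percent (horizontal axis), for the 66 genes in genome order (vertical axis); light or dark blue points are control, orange or brown points knockdown, anti-ETO at left and anti-Flag at right, and a grey line joins both conditions (where points coincide, control is hidden). BAHCC1 reaches 69.95% and NPLOC4 moves from 4.75% to 24.996% with anti-Flag.

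Non-coding genes of the stretch were covered as well. Of 39 long non-coding RNA genes, 22 had a peak in all 4 lists in the body or within 1 kb (9.48% of all such genes), 22 had a knockdown-unique peak (3.59% of all such genes) and none had the control-unique one (3.79% of all such genes had a control-unique peak). LINC01971 lay wholly under a peak in each list, with 942 bp. TMEM105 had 1628, 6634, 5094 and 11067 bp under peaks. Of 9 microRNA genes, 3 (MIR4740, MIR6787 and MIR4525) had a peak in all 4 lists within 1 kb (7.12% of all). Peaks touched the hairpins of MIR6787 in SLC16A3, MIR3186 in BAHCC1 and MIR4740 in BAHCC1. MIR6787 was covered over its 61 bp in all 4 lists. MIR3186 had 0, 85, 54 and 85 bp and lay in a knockdown-unique peak, and MIR4740 had 16, 63, 63 and 0 bp. Their mature arms are printed from RefSeq (GRCh38.p14), with the seed (bases 2 to 8) in capitals, to identify them, and their seeds all differ.
hsa-miR-6787-5p: uGGCGGGGguagagcuggcugc
hsa-miR-6787-3p: uCUCAGCUgcugcccucuccag
hsa-miR-3186-5p: cAGGCGUCugucuacguggcuu
hsa-miR-3186-3p: uCACGCGGagagauggcuuug
hsa-miR-4740-5p: aGGACUGAuccucucgggcagg
hsa-miR-4740-3p: gCCCGAGAggauccgucccugc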

How the data were processed

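The study made 18 CUT&RUN libraries from 200000 sorted cells each, with fragments of 150 to 400 bp, paired 75-bp reads and about 40 M reads planned per library, per the labels' protocols. The deposited files are interval lists with chromosome, start and end, and no score. The submitters' processing notes name fastp 0.19.5, Bowtie2 2.3.5, MACS2 2.2.5 and HOMER 4.8 and the builds hg38 and sacCer3. The peak threshold, the use of IgG and the handling of replicates are not given in the sources used here, and a looser threshold or a deeper library would lengthen a list. Positions are printed with starts counted from 1. Genes came from the RefSeq table of GRCh38.p14, the same build.

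Overlaps of at least 1 bp, merged regions and bases under peaks were computed with pandas 2.3.3, numpy 2.4.6 and, for intervals, statsmodels 0.14.6 under Python 3.11.15. Derived lists at equal list lengths were rebuilt with an overlap of at least 100 bp instead. Intervals are 95% Wilson intervals. No test was run, because no list holds a value per library. The interval functions were tested on simulated data (1000 intervals, of which 600 were made to overlap) and against bedtools 2.31.1, and all 12 checks gave equal counts. The members, the gene lists by role and the comparison settings were chosen with earlier results of these data known. Named genes are those at the 10 widest merged regions, the 10 protein-coding genes with the widest knockdown-unique peaks, the gene with the control-unique peak, the role lists and genes without a peak. RFNG, GPS1, ASPSCR1, MYADML2, NOTUM, UTS2R, PPP1R27, LOC124904077, LOC124904094, the long non-coding and microRNA genes, the counts per kb and the other windows were chosen after their values were seen.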

Additional observations from a re-analysis of the deposited data

How the results depend on the processing

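Of 32 recomputed values, 20 stayed within the interval of the main value and 12 moved. A change of direction was defined only for the anti-ETO and anti-Flag ratios of knockdown to control, and neither ratio changed direction. The shares had no direction to change. Requiring an overlap of 50% of both peaks moved the share of regions called in all 4 lists to 6.90%, of control anti-ETO peaks overlapping anti-Flag to 58.9% and of knockdown ones to 55.6%. With all 4 lists at the length of the shortest, regions called in all 4 lists were 21.6% and control anti-ETO peaks overlapping anti-Flag 91.4%. At that length, knockdown-unique peaks were 41.5% of the 3 derived lists, rebuilt with an overlap of at least 100 bp. The anti-ETO ratio of knockdown to control was then 1.47. From 82000000 on, regions called in all 4 lists were 12.7%, knockdown anti-ETO peaks overlapping anti-Flag 88.2% and the anti-Flag ratio 2.26. With the wider 50% of each list, knockdown anti-ETO peaks overlapping anti-Flag were 95.7%, and with 10 kb flanks 89.4% of genes had a peak in all 4 lists. No paired analysis was possible because the lists carry no replicate numbers. Without peak heights or depth, a weak call cannot be told from a strong one.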

Other observations

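Other windows with many peaks also held few control-unique peaks. A window near the end of the long arm of chromosome 8 held 140 control anti-ETO, 464 control anti-Flag, 344 knockdown anti-ETO and 825 knockdown anti-Flag peaks, with 117 shared, 2 control-unique and 163 knockdown-unique peaks. The window from 65 to 66 Mb of chromosome 11 held 75 shared, 6 control-unique and 67 knockdown-unique peaks, and that from 1 to 2 Mb of chromosome 19 held 80, 8 and 74. Knockdown anti-Flag alone called 47.7%, 43.8% and 30.2% of the merged regions of these windows, beside 46.8% at the end of 17q. The windows were picked for their number of peaks, and none of these differences was tested.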
